A study of Mus musculus with 66 samples.

Results

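The canonical Wnt pathway was followed through 10 genes in cultured mouse neurons in which 9 regulators of chromatin and transcription had been depleted in turn: Ctnnb1, Apc, Axin2, Lrp6, Znrf3, Nkd1, Tcf7, Tcf7l1, Tcf7l2 and Lef1. They were chosen by symbol, for their place in the pathway, out of 30084 named genes in the count table. Earlier results of these data were known when they were chosen. All 10 passed the filter on low counts that left 16145 genes for testing. The neurons came from wildtype embryos at e16.5, kept apart by sex. All but the no virus cultures were given lentivirus with a small hairpin RNA (shRNA), designed to deplete 1 mRNA: a nontargeting shRNA as the control, or one against Chd8, Med13l, Setd5, Kdm6b, Ash1l, Kmt2c, Dnmt3a, Mbd5 or Tbr1. Day 6 ended the exposure to virus and day 10 was the day of lysis, and doses were meant to leave about 50% of a target. Each of these 11 conditions had 3 libraries per sex, 66 in all, with 13634872 to 66074822 counts. The labels name triplicate wells and not separate litters, so p-values measure the spread between these libraries, which may be technical. In such bulk samples fewer cells of a type and less RNA per cell cannot be told apart.

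In this pathway a Wnt ligand binds a Frizzled receptor and the co-receptor LRP5 or LRP6. Without ligand, a destruction complex built on APC and AXIN marks beta-catenin, the product of Ctnnb1, for degradation. With ligand, beta-catenin accumulates, enters the nucleus and binds DNA through TCF and LEF factors, and Axin2, Nkd1, Znrf3 and Lef1 are known targets that feed back on the pathway. Chd8 is of interest here because its product, a chromatin remodeller, is known to bind beta-catenin and has been described as a repressor of its target genes. These are measurements of mRNA: the amount and the place of the beta-catenin protein were not measured.

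The stretches below are the 250 bases before a RefSeq start of Axin2 and of Nkd1, both known beta-catenin targets. With them are the only stretches, among the windows searched, in which the core of the TCF and LEF binding site was found. They come from RefSeq promoter windows (GRCm38.p6), which run from 250 bases before to 50 after a start. Windows of 7 of the members were searched (13 windows), and none of Apc, Znrf3 or Lrp6. The letters searched, on both strands, were CTTTGAT as the first form of the core, CTTTGTT as the second, CTTTGAA as the third and CTTTGTA as the fourth, and capitals mark a match. Axin2 lies on the plus strand at chr11:108920099-108920348, Nkd1 at chr8:88527383-88527632, the Lef1 stretch at chr3:131156130-131156170 and the Tcf7l2 stretch at chr19:55895281-55895320.
Axin2: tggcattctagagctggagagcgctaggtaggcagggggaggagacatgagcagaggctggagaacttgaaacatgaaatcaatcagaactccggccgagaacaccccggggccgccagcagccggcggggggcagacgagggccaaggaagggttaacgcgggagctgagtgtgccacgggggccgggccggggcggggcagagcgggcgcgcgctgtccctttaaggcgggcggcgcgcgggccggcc
Nkd1: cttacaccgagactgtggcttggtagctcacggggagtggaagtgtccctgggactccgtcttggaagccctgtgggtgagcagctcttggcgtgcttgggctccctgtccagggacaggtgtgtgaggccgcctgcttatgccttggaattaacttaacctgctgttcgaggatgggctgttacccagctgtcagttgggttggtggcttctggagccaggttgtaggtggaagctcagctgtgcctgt
Lef1: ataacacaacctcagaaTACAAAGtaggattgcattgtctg
Tcf7l2: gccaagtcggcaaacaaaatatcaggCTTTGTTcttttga
A match was found in 2 of the 13 windows of members, against 16.9% of all 32851 windows. The Lef1 match, CTTTGTA read on the minus strand, begins 147 bases before a start, and the Tcf7l2 match begins 14 bases before one. Both windows belong to a later start than the first one listed for their gene. The windows of Axin2 and Nkd1 hold none of these letters, which says only that they are not in these windows. In the GENCODE M21 annotation Nkd1 begins further upstream, at chr8:88521354, and the bases before that start were not searched.

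The 10 genes covered a wide range of levels. Per kb of annotated exon, Ctnnb1 was the most abundant, with group means between 108 and 145 normalised counts (CPM, counts scaled by library size) per kb, and Apc followed with 34.6 to 75.7 CPM per kb. Lrp6 had 2.06 to 3.34 CPM per kb, Axin2, which encodes the inducible scaffold of the destruction complex, 1.65 to 2.83, Znrf3, a membrane ubiquitin ligase that removes Frizzled, 0.752 to 1.4, and Nkd1, an antagonist of Dishevelled, 0.525 to 1.45. The 4 genes for the DNA-binding partners of beta-catenin were far below these. Tcf7 had a median group mean of 0.173 CPM per kb, Tcf7l1 0.0846, Tcf7l2 0.0490 and Lef1 0.0178. Lef1 had 0 counts in 12 of 66 libraries and never more than 24 counts, a depth at which only very large changes could be seen. The highest library had 46 counts of Tcf7, 36 of Tcf7l2 and 34 of Tcf7l1.

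**Figure D1:**
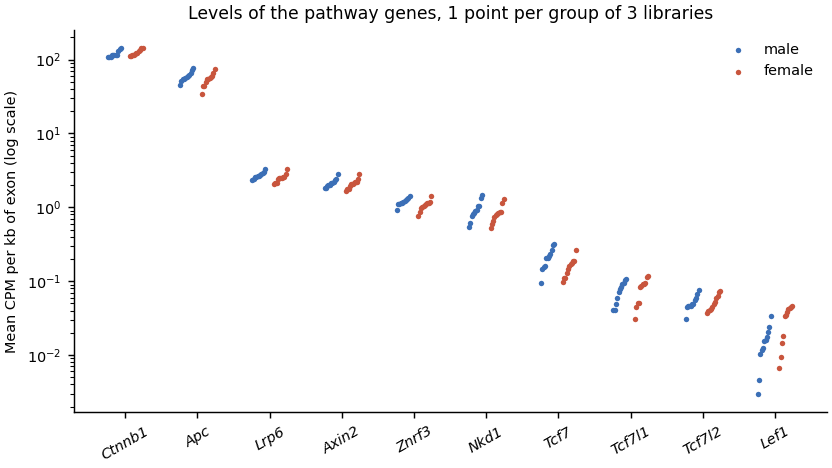
Mean CPM per kb of annotated exon (log scale) of the 10 pathway genes, with 1 point for each group of 3 libraries, males in blue and females in red. Ctnnb1 and Apc have group means of at least 34.6 CPM per kb, and the 4 TCF and LEF genes have at most 0.319.

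The cultures were checked against markers of their labelled type. The summed level of 5 neuron markers was 3560 to 6020 CPM per library, that of 7 astrocyte or radial glia markers 323 to 1330 CPM, and that of 6 microglia markers 0.437 to 3.87 CPM. The targeted genes were at 22.3% to 54.3% of the nontargeting mean. Setd5 stood at 141 CPM, inside the nontargeting range of 133 to 149 CPM, in the library labelled male Setd5 shRNA replicate 1. Kdm6b stood at 39.9 CPM in the library labelled male Kdm6b shRNA replicate 1, against 17.2 CPM in each of the other two. Each of these libraries was low for the other's target: Kdm6b was at 23.1 CPM in the former (47.2 and 62.6 CPM in the other two Setd5 shRNA libraries) and Setd5 at 44.9 CPM in the latter (120 and 166 CPM in the other two Kdm6b shRNA libraries). They were kept under their labels, and results are also given without them. Chd8 itself had 37.1, 34.1 and 37.7 CPM in the male Chd8 shRNA libraries against 118, 114 and 124 CPM in the nontargeting ones. In females it had 35.3, 40.6 and 34.0 CPM against 87.7, 127 and 96.9 CPM. The nontargeting virus did not move a member past the threshold in either sex. Between nontargeting and no virus libraries edgeR called 0 of 10 members and 0% of all genes in each sex, with 0 members at an unadjusted p below 0.05 and 0 by DESeq2.

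Across the 9 depletions hardly any test of a member passed the threshold. Groups were set against the nontargeting group of their sex with edgeR (quasi-likelihood test), with Benjamini-Hochberg adjusted p-values over all 16145 genes and a threshold of 0.05. Of 180 tests of a member, 1 passed, and 16 had an unadjusted p below 0.05. Over the same 18 comparisons 2.48% of all tests passed. The call was Apc after Med13l depletion in females, described below. No member was called in both sexes of any depletion. Libraries with the same replicate number deviated together in 14 of the 18 comparisons, and with the replicate number as a block 9 of 140 tests of members passed in those 14, against 7% of all tests in them.

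**Figure D2:**
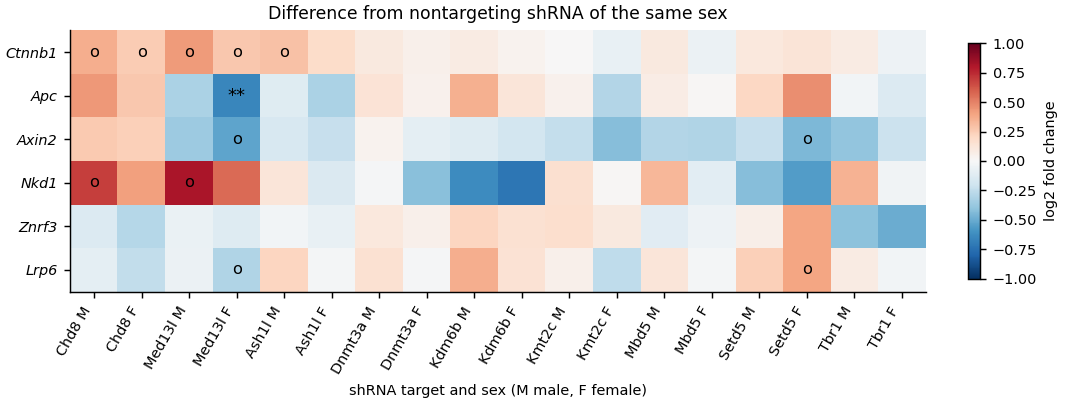
Log2 fold change against nontargeting shRNA of the same sex (colour) for 6 members in the 18 comparisons. A double asterisk marks the call for Apc after Med13l shRNA in females, and circles mark tests past the threshold only with the replicate block. The circles for Ctnnb1 after Ash1l shRNA and for Ctnnb1 and Nkd1 after Med13l shRNA, all in males, come from comparisons whose replicate numbers do not pair the libraries. The 4 TCF and LEF genes are left out because no library had more than 46 counts of any of them.

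After Chd8 depletion, Ctnnb1, Apc, Nkd1 and Axin2 all had higher group means than the control, at 120% to 161% of it in males and 118% to 133% in females, and none of them passed the threshold. In males edgeR called 0 of 10 members, while 9.82% of all genes were called, 3 members had an unadjusted p below 0.05 and DESeq2 called 0. In females it called 0 of 10, against 9.33% of all genes, with 0 members at an unadjusted p below 0.05 and 0 by DESeq2. With the replicate block 2 of 10 members passed in males, against 22.1% of all genes, and 1 of 10 in females, against 21.1%. The median difference of the 10 members was 0.21 on the log2 scale in males and 0.07 in females, against 0.00 over all genes in each sex. These medians include the TCF and LEF genes, whose low counts leave their differences very uncertain.

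Ctnnb1, which encodes beta-catenin, had 735, 688 and 737 CPM in the 3 male Chd8 shRNA libraries and 573, 570 and 537 CPM in the nontargeting ones. All 3 were above all controls, with a log2 fold change of 0.36 (SE 0.162, 95% interval 0.04 to 0.69, edgeR adjusted p = 0.170). With the replicate block it passed (edgeR adjusted p = 0.00100). In females the values were 894, 566 and 740 CPM against 677, 533 and 633 CPM. The female groups overlapped, with replicate 2 the lowest of both, at a log2 fold change of 0.26 (SE 0.162, edgeR adjusted p = 0.405, with the replicate block 0.0367). With any 1 of the 6 libraries left out, the female difference ranged from 0.09 to 0.41.

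Nkd1 had 6.17, 5.44 and 6.60 CPM after Chd8 shRNA in males against 4.19, 3.21 and 3.89 CPM. These ranges did not overlap, for a log2 fold change of 0.69 (SE 0.279, 95% interval 0.13 to 1.25, edgeR adjusted p = 0.118, with the replicate block 0.0220). In females it had 7.29, 4.19 and 4.23 CPM against 4.64, 3.56 and 3.61 CPM. Here the ranges overlapped and replicate 1 stood above the other two, with a log2 fold change of 0.41 (SE 0.279, edgeR adjusted p = 0.449, with the replicate block 0.250).

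Apc, the scaffold that holds beta-catenin in the destruction complex, had 1200, 994 and 1460 CPM in males against 906, 846 and 961 CPM. The lowest depleted library was above the highest control, with a log2 fold change of 0.43 (SE 0.195, 95% interval 0.04 to 0.82, edgeR adjusted p = 0.175, with the replicate block 0.0553). In females it had 1360, 877 and 933 CPM against 750, 1030 and 842 CPM, which overlapped (log2 fold change 0.27, SE 0.195, edgeR adjusted p = 0.482). Ctnnb1, Nkd1 and Apc were the 3 members whose replicate ranges did not overlap in males, where 38.9% of all genes did not. In females no member's ranges were apart, against 21.5% of all genes.

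Axin2, the most used transcriptional readout of the pathway, had 16.3, 14.6 and 15.9 CPM after Chd8 shRNA in males and 11.1, 12.4 and 15.5 CPM with the nontargeting shRNA. The highest control lay within the depleted range. This gave a log2 fold change of 0.26 (SE 0.293, 95% interval -0.33 to 0.85, edgeR adjusted p = 0.700). In females it had 11, 20.8 and 14.6 CPM against 10.3, 15.4 and 13.7 CPM, a log2 fold change of 0.24 (SE 0.293, 95% interval -0.35 to 0.82, edgeR adjusted p = 0.743). The block did not bring Axin2 past the threshold in either sex (edgeR adjusted p = 0.233 and 0.390). These intervals leave room for an increase of up to 0.85 on the log2 scale and for a decrease.

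Lrp6 and Znrf3 lay slightly below the control in both sexes. The Lrp6 differences were -0.10 in males and -0.25 in females (edgeR adjusted p = 0.752 and 0.277), and those of Znrf3 -0.14 and -0.28 (edgeR adjusted p = 0.790 and 0.499). The TCF and LEF genes gave no usable estimate at this depth. Tcf7l2 had 8, 36 and 32 counts in the male Chd8 shRNA libraries against 18, 23 and 22 counts, and the 95% interval of its log2 fold change ran from -1.27 to 1.58. Lef1 had 16, 14 and 2 counts against 8, 4 and 2.

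**Figure D3:**
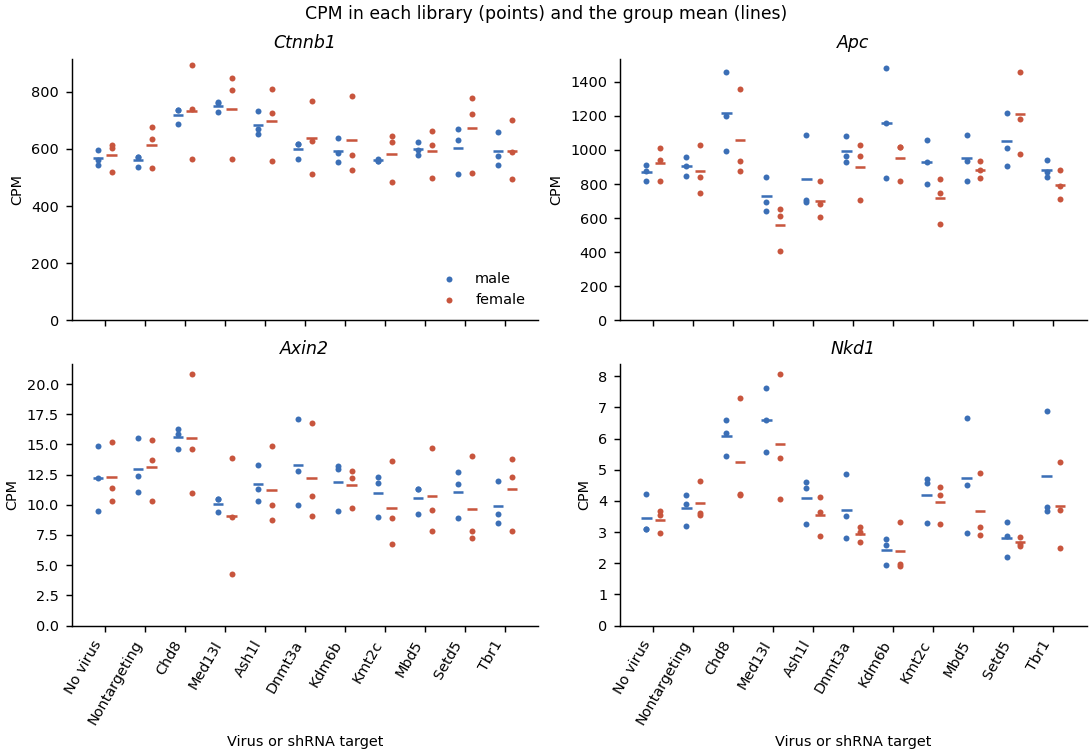
CPM of Ctnnb1, Apc, Axin2 and Nkd1 in each of the 66 libraries (points) with the mean of each group (lines), males in blue and females in red. The male Chd8 shRNA libraries lie above all male nontargeting libraries for Ctnnb1, Apc and Nkd1, and the female points spread more widely.

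Set against the mean of the other depletions, Nkd1 was higher after Chd8 shRNA in both sexes and Apc in males. In this comparison the Chd8 shRNA libraries of a sex were set against the mean of the other 8 shRNA groups of that sex, so all cultures carried a targeting virus and the nontargeting libraries took no part. In males 2 of 10 members were called, Nkd1 (log2 fold change 0.60, SE 0.198, edgeR adjusted p = 0.0243) and Apc (0.39, SE 0.141, edgeR adjusted p = 0.0427), while 19.9% of all genes were. In females Nkd1 was called (0.59, SE 0.199, edgeR adjusted p = 0.0291), 1 of 10 against 19.4% of all genes. Both shares are close to the background or below it. Neither rise was particular to Chd8 shRNA. Nkd1 had a higher mean with Med13l shRNA, at 6.61 against 6.07 CPM in males and 5.83 against 5.24 CPM in females. Male Apc with Kdm6b shRNA (mean 1160 CPM) overlapped that with Chd8 shRNA (mean 1220 CPM). The male Nkd1 call was lost without Chd8 shRNA male replicate 1 or 3 (edgeR adjusted p up to 0.161), the female one without Chd8 shRNA female replicate 1 (0.28, edgeR adjusted p = 0.536), and the Apc call was lost in 12 of 27 fits that left out a library.

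Axin2 was 0.48 higher on the log2 scale than the mean of the other 8 in males (SE 0.211, edgeR adjusted p = 0.106) and 0.54 higher in females (SE 0.210, edgeR adjusted p = 0.0627). The same-numbered libraries deviated together in this comparison, and with the replicate block Axin2 passed in both sexes (edgeR adjusted p = 0.000512 and 0.000163). With the block Ctnnb1 (0.22 and 0.19), Apc and Nkd1 were also higher and Lrp6 lower (-0.25 and -0.24) in each sex, 5 of 10 members against 33.2% of all genes in males and 34% in females. Axin2 had its highest group mean with Chd8 shRNA in each sex, 15.6 ± 0.877 CPM in males and 15.5 ± 4.96 CPM in females (SD, n = 3), but its replicates overlapped those of the next group in the order, Dnmt3a shRNA in males (13.3 ± 3.58 CPM) and the nontargeting shRNA in females (13.1 ± 2.59 CPM). Averaged over the sexes, Axin2 was below the nontargeting control after each of the other 8 shRNAs, by between -0.45 and -0.03, beside its 0.25 above that control after Chd8 shRNA. These differences share the same nontargeting libraries and are not separate observations. The no virus means were also below the nontargeting ones, at 12.2 against 13 CPM in males and 12.3 against 13.1 CPM in females. In females Axin2 passed without the block in 8 of 27 fits that left out a library (edgeR adjusted p from 0.0232 to 0.541 over all 27).

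Med13l, which encodes a part of the Mediator kinase module, gave the 1 member call. Apc had 404, 652 and 614 CPM in the female Med13l shRNA libraries against 750, 1030 and 842 CPM, without overlap. It fell by 0.65 on the log2 scale (SE 0.196, edgeR adjusted p = 0.0226, with the replicate block 0.00197), which was 1 of 10 members against 10.2% of all genes. The call was lost without nontargeting female replicate 2 or Med13l shRNA female replicate 1 (edgeR adjusted p up to 0.303). In males Apc had 695, 644 and 841 CPM against 906, 846 and 961 CPM, a difference of -0.32 that did not pass (SE 0.195, edgeR adjusted p = 0.370), and male Med13l depletion called 0 of 10 members against 8.06% of all genes, with 2 at an unadjusted p below 0.05 and 1, Nkd1, by DESeq2.

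Ctnnb1 and Nkd1 also lay above the control after Med13l depletion, though not past the threshold. Ctnnb1 had 760, 728 and 765 CPM in males, all above the nontargeting range of 537 to 573 CPM (log2 fold change 0.42, SE 0.162, edgeR adjusted p = 0.102), and 849, 563 and 806 CPM in females (0.27, SE 0.162, edgeR adjusted p = 0.318, with the replicate block 0.0204). Nkd1 had 7.63, 5.58 and 6.61 CPM in males (0.81, SE 0.280, edgeR adjusted p = 0.0605) and 8.07, 4.07 and 5.36 CPM in females (0.57, SE 0.280, edgeR adjusted p = 0.201). Axin2 and Lrp6 lay on the other side of the control. Axin2 had 4.29, 13.9 and 9.01 CPM in females, a log2 fold change of -0.53 (SE 0.296, edgeR adjusted p = 0.269, with the replicate block 0.00374), and the call without the block was gained when Med13l shRNA female replicate 2 was left out (-0.96, edgeR adjusted p = 0.0293). Lrp6 differed by -0.30 (SE 0.131, edgeR adjusted p = 0.136, with the replicate block 0.0422). With the block 4 of 10 members passed in females, against 27.9% of all genes.

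The difference between the Chd8 and the Med13l depletion was tested directly, a comparison chosen after these values were seen. Apc was higher with Chd8 shRNA by 0.75 in males (SE 0.196, edgeR adjusted p = 0.00403) and by 0.92 in females (SE 0.196, edgeR adjusted p = 0.000357), 1 of 10 members in each sex against 19.4% and 21.9% of all genes. Axin2 was 0.62 higher in males (SE 0.295, edgeR adjusted p = 0.141, with the replicate block 0.00156) and 0.77 higher in females (SE 0.296, edgeR adjusted p = 0.0552, with the block 5.32e-05). Ctnnb1 and Nkd1 were not called between these depletions. The interval of the Ctnnb1 difference was -0.39 to 0.27 in males and -0.34 to 0.31 in females, and that of Nkd1 -0.68 to 0.43 and -0.71 to 0.40.

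**Figure D4:**
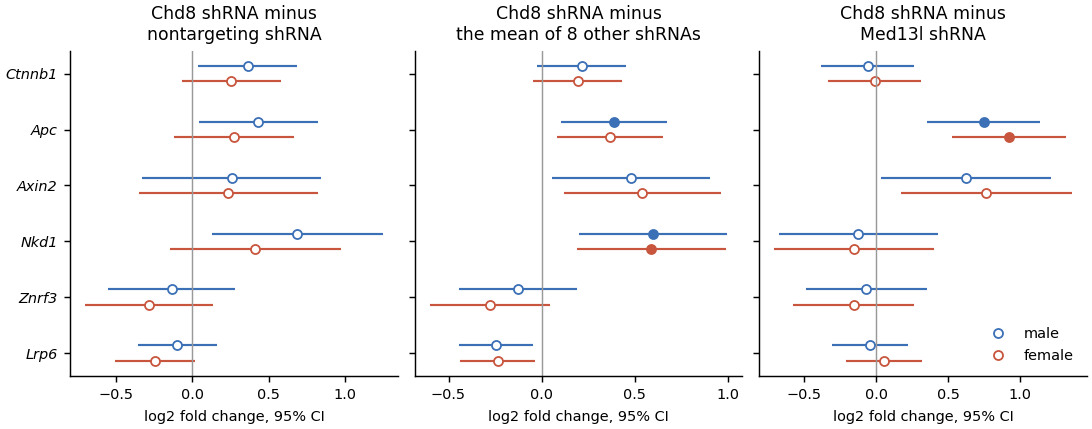
Log2 fold change with its 95% interval of 6 members after Chd8 shRNA, against nontargeting shRNA (left), the mean of the 8 other shRNA groups (middle) and Med13l shRNA (right). Filled points passed the threshold without the replicate block: Nkd1 in both sexes and Apc in males in the middle panel, and Apc in both sexes on the right.

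The remaining depletions gave no member call, and they called few genes of any kind. Of 7200 calls over all genes in the 18 comparisons, Chd8 shRNA gave 1585 in males and 1506 in females. Med13l shRNA gave 1302 and 1653. The target itself did not pass after Kdm6b shRNA in males or females (edgeR adjusted p = 0.0953 and 0.856) or after Setd5 shRNA in males (0.402). After Setd5 depletion in females, Lrp6 had 52.0, 43.8 and 41.1 CPM against 32.6, 38.8 and 32.9 CPM, without overlap (log2 fold change 0.39, SE 0.131, edgeR adjusted p = 0.0867, with the replicate block 0.0159). Axin2 had 7.22, 14 and 7.81 CPM in the same libraries (-0.45, SE 0.299, edgeR adjusted p = 0.495, with the block 0.0483). With the block 2 of 10 members passed there, against 13% of all genes, and without it 0, against 3.12%, with 2 at an unadjusted p below 0.05. Nkd1 was lowest after Kdm6b shRNA in each sex, with 2.43 ± 0.440 CPM in males and 2.39 ± 0.802 CPM in females (SD, n = 3), and neither difference passed (edgeR adjusted p = 0.552 and 0.999). The doubtful male library had 1.94 CPM, and the other two, 2.57 and 2.79 CPM, were also below the lowest control at 3.21 CPM. Znrf3 was lowest after Tbr1 shRNA in each sex, at 7.16 CPM against 9.52 CPM in males (-0.41, SE 0.209, edgeR adjusted p = 1) and 5.94 CPM against 8.37 CPM in females (-0.50, SE 0.211, edgeR adjusted p = 0.893), with ranges below the control range in both and neither past the threshold.

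Ctnnb1 was above the control mean in 15 of 18 comparisons, which share the nontargeting libraries of their sex, and its group means ran only from 560 to 751 CPM. In the order of the 11 group means of a sex, neighbours overlapped for all 10 members apart from single steps for Lef1 in males and Tcf7l1, Znrf3 and Lrp6 in females. The effects were also compared between the sexes. Of 90 tests of a member's sex difference, edgeR called 0, with 1 at an unadjusted p below 0.05 (Tcf7 for Setd5, a gene with at most 46 counts) and 0 by DESeq2, and the background was 0% of all genes, except for Setd5 with 0.0186%. Averaged over the sexes, a fit chosen after the values were seen, Ctnnb1 was 0.31 higher after Chd8 shRNA (SE 0.115, edgeR adjusted p = 0.0444) and Nkd1 0.55 higher (SE 0.198, edgeR adjusted p = 0.0367), 2 of 10 members against 22.3% of all genes. Axin2 did not pass (0.25, SE 0.207, edgeR adjusted p = 0.443), nor did Apc (0.35, SE 0.138, edgeR adjusted p = 0.0589, with the block 0.0153).

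Larger changes after Chd8 depletion were found elsewhere in the pathway. A wider list held 91 further genes (ligands, receptors, secreted inhibitors, cytoplasmic parts, nuclear cofactors and targets), of which 80 could be tested. In males 3 were higher and 4 lower at the threshold, and in females 4 were higher and 6 lower. In the same direction in both sexes 7 of 80 passed, against 7.16% of all genes, a share near the background. With the replicate block these were 18 of 80, against 16.1%. A fit of only the 6 libraries compared in each sex left none in both sexes, and without Chd8 shRNA male replicate 3 the count was 4. The median difference of the 80 genes was 0.10 in each sex.

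Among the receptors and their transducers, Fzd3, a Frizzled receptor known for axon guidance, fell from 59.0, 61.2 and 71.9 CPM to 18.9, 17.3 and 17.8 CPM in males (log2 fold change -1.83, SE 0.351, edgeR adjusted p = 0.000206). In females it fell from 35.9, 86.8 and 47.3 CPM to 9.77, 24.5 and 18.6 CPM (-1.69, SE 0.349, edgeR adjusted p = 0.000644). The groups did not overlap in either sex, and replicate 2 was the highest of both female groups. Dvl3, a Dishevelled protein that carries the signal from Frizzled, fell from 69.3 to 23.5 CPM in males (-1.56, SE 0.319, edgeR adjusted p = 0.000522) and from 53.8 to 21.5 CPM in females (-1.33, SE 0.318, edgeR adjusted p = 0.00360). The female Dvl3 call was lost without nontargeting female replicate 2 or Chd8 shRNA female replicate 1 (edgeR adjusted p up to 0.0789).

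In the nucleus, Ccnd1, the cyclin D1 gene and a known beta-catenin target in dividing cells, fell the most of the list. It went from 11.2, 12.9 and 14.8 CPM to 1.71, 2.28 and 2.05 CPM in males (-2.68, SE 0.424, edgeR adjusted p = 8.78e-06). In females it went from 19.0, 13.8 and 12.9 CPM to 6.36, 3.31 and 2.44 CPM (-1.92, SE 0.406, edgeR adjusted p = 0.000833). Other known targets of beta-catenin named here were not called lower, though the Znrf3 estimates lay below 0 in both sexes. Axin2 did not pass, with estimates above 0, and Myc, named here after its values were seen, rose in females from 14, 18.8 and 15.7 CPM to 29.5, 25.6 and 22.3 CPM (0.67, SE 0.164, edgeR adjusted p = 0.00453), a call lost without Chd8 shRNA female replicate 1 (0.0696). In males Myc had 28.2, 25.7 and 30.2 CPM against 21.2, 21 and 18.6 CPM (0.47, SE 0.164, edgeR adjusted p = 0.0584, with the replicate block 0.00480). Markers of dividing progenitors, summed over 6 genes, were at 37.3 to 51.9 CPM per library in the male Chd8 shRNA group and 40.9 to 47.9 CPM in the control, and at 30.6 to 62.8 against 34.4 to 56.9 CPM in females. Most of this sum is Nes and Sox2. Top2a, a gene of dividing cells, was at 1.4 against 2.79 CPM in males, with ranges apart (-1.0, edgeR adjusted p = 0.173, with the replicate block 0.0411), and at 1.3 against 1.99 CPM in females (-0.60, edgeR adjusted p = 0.513, with the block 0.360), while Mki67 was at 95.5% and 96.4% of the control. Their part in the Ccnd1 result was not tested. Tle2, a Groucho corepressor of TCF factors, fell by 0.91 in males (SE 0.202, edgeR adjusted p = 0.00139) and by 0.96 in females (SE 0.203, edgeR adjusted p = 0.000783).

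Of 11 secreted or membrane inhibitors tested, Kremen1 and Sfrp2 rose in each sex, and of 7 genes of the R-spondin axis Rspo2 did, with no other call in either list. Of all genes, 7.16% were called in the same direction in both sexes. With so few genes in each list, these counts cannot be read as a result about inhibitors or R-spondins. Kremen1, a receptor of the inhibitor Dickkopf, had 13.8, 14.1 and 18.4 CPM in males against 6.04, 6.43 and 9.26 CPM (1.09, SE 0.277, edgeR adjusted p = 0.00579) and 16.6, 13.5 and 14.2 CPM in females against 4.49, 7.30 and 5.32 CPM (1.37, SE 0.279, edgeR adjusted p = 0.000518). Sfrp2, a secreted Frizzled-related inhibitor, rose from 6.98 to 14.5 CPM in males (1.06, SE 0.312, edgeR adjusted p = 0.0208) and from 4.71 to 10.6 CPM in females (1.17, SE 0.316, edgeR adjusted p = 0.0102). Rspo2, an R-spondin that strengthens Wnt signals, rose from 20.4 to 34.3 CPM in males (0.75, SE 0.206, edgeR adjusted p = 0.0121) and from 22.7 to 40.2 CPM in females (0.82, SE 0.206, edgeR adjusted p = 0.00573). Kremen1 and Sfrp2 are known as inhibitors and Rspo2 as an enhancer of the pathway. In males all 3 calls were lost without Chd8 shRNA replicate 3, that of Rspo2 also without nontargeting replicate 1, and that of Sfrp2 also without nontargeting replicate 1 or 3 or Chd8 shRNA replicate 1 (edgeR adjusted p up to 0.0508 for Kremen1, 0.0610 for Rspo2 and 0.0895 for Sfrp2). In females that of Rspo2 was lost without nontargeting replicate 1 (edgeR adjusted p = 0.0679) and that of Sfrp2 without nontargeting replicate 3 or Chd8 shRNA replicate 1 (up to 0.101).

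**Figure D5:**
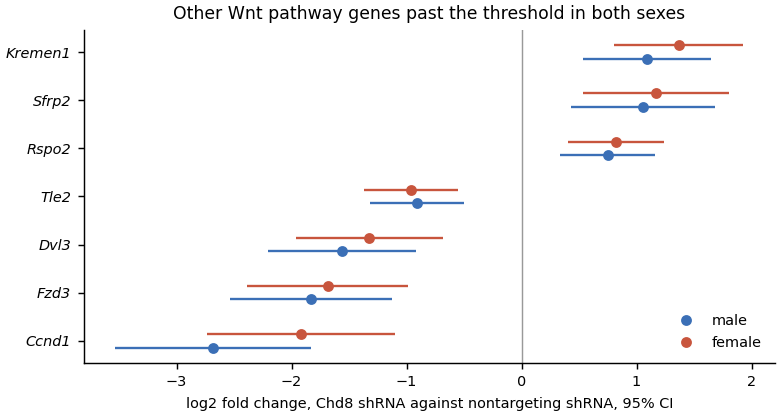
Log2 fold change with its 95% interval, Chd8 shRNA against nontargeting shRNA, of the 7 genes of the wider Wnt list past the threshold in both sexes, males in blue and females in red. Ccnd1, Fzd3, Dvl3 and Tle2 are below 0 and Rspo2, Sfrp2 and Kremen1 above it, with no interval crossing 0.

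Markers of several cell types moved beside these changes, and more of them passed with the replicate block. By the rule used here the numbers pair the Chd8 shRNA and nontargeting libraries, with lower correlations in males (0.191 to 0.370) than in females (0.647 to 0.753). The labels do not state a pairing. The block takes the same shift for all groups of a sex, also for those whose numbers do not pair. The 4 markers of mural cells and fibroblasts (Pdgfrb, Rgs5, Col1a1 and Dcn) summed to 15.6 to 24.4 CPM per library after Chd8 shRNA in males against 32.8 to 54.1 CPM, and to 18.8 to 32.4 against 48.9 to 71.7 CPM in females, without overlap. None of the 4 passed without the block, and with it Dcn (edgeR adjusted p = 8.68e-10 in males and 5.81e-09 in females) and Rgs5 (0.00353 and 0.0122) were lower. Of 5 neuron markers Syt1 was lower in each sex (-0.94 in males and -0.90 in females), and with the block Tubb3 was also higher in males (0.43, edgeR adjusted p = 0.0133) and Map2 lower in females (-0.39, edgeR adjusted p = 0.0180). Their summed levels were 4280 to 4850 CPM in males against 5050 to 5110 CPM, and 4150 to 4490 against 4760 to 5410 CPM in females. Of 4 inhibitory neuron markers Gad2 was lower in each sex (-0.65 and -0.73), joined with the block by Slc32a1 (edgeR adjusted p = 0.0407 and 0.0423), and their sums were 992 to 1240 against 1260 to 1560 CPM in males and 906 to 1180 against 1010 to 1450 CPM in females. None of 3 excitatory neuron markers passed, and with the block Slc17a6 was lower in both sexes and Slc17a7 in females. Neurod6 went the other way, at 131% of the control in males and 125% in females. It did not pass with the block (edgeR adjusted p = 0.183 and 0.300). The sums of these markers overlapped, at 393 to 486 against 401 to 426 CPM in males and 460 to 521 against 458 to 524 CPM in females.

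None of the 7 astrocyte or radial glia markers passed without the block. With it Gfap and Slc1a2 were lower and Fabp7 higher in males (edgeR adjusted p = 0.0211, 0.0118 and 0.0191), and Gfap, Aqp4, Slc1a3 and Slc1a2 were lower in females (edgeR adjusted p = 0.00138, 0.00189, 0.00133 and 0.00975). Their sums spread from 403 to 775 CPM after Chd8 shRNA in males against 450 to 499 CPM, and from 323 to 928 against 563 to 695 CPM in females. No marker of these lists was at 0 in the Chd8 shRNA or nontargeting groups. The part of such shifts in the results for the pathway was not tested.

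After the other depletions, 6 further genes of the wider list are described, those with most calls and, among equal counts, the smallest adjusted p. Of these, 5 were lower after Med13l shRNA in both sexes and Porcn after Tbr1 shRNA. Med13l shRNA called 8.06% of all genes in males and 10.2% in females, and the 5 were picked for their calls. Sfrp1, a secreted Frizzled-related inhibitor, fell from 78.0 to 27.6 CPM in males (-1.50, SE 0.165, edgeR adjusted p = 3.59e-09) and from 70.3 to 25.7 CPM in females (-1.45, SE 0.165, edgeR adjusted p = 9.87e-09), and both calls held without any single library. Sfrp1 was also called lower after Setd5 shRNA in females (-0.59, edgeR adjusted p = 0.0294), a call lost in 3 of 6 fits that left out a library (up to 0.336). Wnt5a, a ligand of the beta-catenin-independent branch, fell by 1.34 in males and by 1.59 in females (edgeR adjusted p = 0.0102 and 0.00205), and the male call was lost without nontargeting or Med13l shRNA male replicate 1 (up to 0.0553). Bcl9, a coactivator that binds beta-catenin, fell by 0.82 and by 0.90 (edgeR adjusted p = 0.00148 and 0.000470). Amer1 and Tnks, which act on the destruction complex, were also lower in both sexes, with edgeR adjusted p of 0.0481 and 0.0158 for Amer1 and of 0.0330 and 0.00777 for Tnks, and their male calls were lost without any 1 of the 6 libraries (edgeR adjusted p up to 0.204 and 0.158), their female ones without nontargeting replicate 2 or Med13l shRNA replicate 1 (up to 0.330 and 0.208). Apcdd1 and Fzd4 had as many calls as all of these but Sfrp1 and are named after their values were seen. Apcdd1, a membrane inhibitor of Wnt signals, was higher after Med13l shRNA in both sexes, by 0.62 and 0.60 (edgeR adjusted p = 0.0476 and 0.0492), calls lost in 5 and 4 of 6 fits that left out a library (up to 0.233 and 0.349). Fzd4, a Frizzled receptor, was lower after Ash1l shRNA in males (-1.16, edgeR adjusted p = 0.0286) and after Chd8 shRNA in females (-0.92, edgeR adjusted p = 0.0477), calls lost in 5 and 6 of 6 such fits (up to 0.205 and 0.219). Markers also moved after Med13l shRNA. Neuron markers summed to 3910 to 4220 CPM in males and 3560 to 4230 CPM in females, below all nontargeting libraries of their sex. In males this was mostly Syt1, at 222 against 1270 CPM, while Tubb3, Map2, Rbfox3 and Snap25 were at 93.2% to 105% of the control. In females Syt1 was at 248 against 1110 CPM, while Map2 was at 84.7% and Tubb3 at 91.8% of the control, Rbfox3 at 96.2%, and Snap25 did not lie below it. Also lower were Slc32a1 in both sexes (edgeR adjusted p = 0.0109 and 0.00927) and Gad1 and Top2a in males (0.0180 and 0.000769). Their part in these results was not tested. Porcn, the acyltransferase that lipid-modifies Wnt ligands, fell after Tbr1 shRNA by 0.93 in males and by 0.67 in females (edgeR adjusted p = 0.000331 and 0.0428), and the female call was lost without any 1 of the 6 libraries (up to 0.499). After Chd8 shRNA, Sfrp1, Wnt5a, Bcl9, Amer1 and Tnks did not pass in either sex.

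Outside the pathway, the genes whose group means followed those of Axin2 most closely over the 22 groups were Reps2 (Pearson r = 0.900), Fam102b (0.885), Trps1 (0.860), Smad1 (0.850) and Utrn (0.849). For Ctnnb1 they were Mlst8 (0.906), Nek6 (0.894), Dstyk (0.885), Nudt10 (0.885) and Prdx4 (0.884). These are the highest of 16144 coefficients each, and the groups share their days and their spread between libraries, so they describe these cultures only. Some counts may mix genes, because the strand setting of the counting is not given in the sources used here: exons of Axin2, Ctnnb1, Lef1 and Tcf7l1 overlap an annotated gene on the opposite strand, Gm11670, Ulk4, Gm43352 and Gm15401.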

How the data were processed

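Counts of reads per gene were deposited by the authors as 1 table, made with STAR and featureCounts against mm10, per the submitters' processing notes; the annotation and the strand and pair settings are not given in the sources used here. The control columns are named Luc in the table, and were taken as the group that the labels call nontargeting. 6 library columns were not used. The 18483 rows without a symbol (0.69% to 1.41% of the counts of a library) took no part in library sizes or tests, and rows of 149 repeated symbols were summed. Of counts from 1 to 20, 26.7% were odd, against 49.1% of counts of 1000 or more, so counts halved and rounded were tried.

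edgeR 4.0.16 (R 4.3.3, TMM factors 0.874 to 1.06, filterByExpr) fitted 1 mean per group over 66 libraries, and its quasi-likelihood test was adjusted by Benjamini-Hochberg over 16145 genes per comparison. The SE of a log2 fold change was its size over the root of F, and intervals are 95%. The scripts were tested on simulated data. CPM use TMM-scaled library sizes, and levels per kb the exon length of GENCODE M21. Replicate numbers were taken to pair libraries where all 3 correlations of their deviations from group means exceeded 0.1, over genes with a mean CPM of at least 5: this held in 6 of 9 male comparisons (not Ash1l, Kdm6b and Med13l) and in 8 of 9 female ones (not Kdm6b), in Chd8 against nontargeting with male correlations of 0.191 to 0.370 and female ones of 0.647 to 0.753. Libraries of a group differed by more than sampling noise (chi-square per gene from 7.92 to 386).

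Members and lists were chosen with earlier results of these data known. Of the wider list, the text names each gene called in the same direction in both sexes after Chd8 shRNA and the 6 others with most calls over the 18 comparisons, ties going to the smallest adjusted p. Fzd4, Apcdd1 and Myc were named outside this rule, after their values were seen. Alternatives were DESeq2 1.42.0 and its size factors, no filter and a stricter filter on low counts (CPM of at least 1 in 6 libraries), the replicate block, other sets of libraries, the no virus control, and each library left out in turn.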

Additional observations from a re-analysis of the deposited data

How the results depend on the processing

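Refits of single genes followed 51 results, and none of these changed direction. They were member calls of the main fit, member calls with the block where numbers pair, and main calls of the named wider genes. Calls found only under another setting were not followed in this way. Of 1006 refits of single genes, 847 kept their side of the threshold, 36 gained a call and the rest lost one. With the replicate block, which pairs libraries by number, the calls among the 10 members after Chd8 shRNA numbered 2 in males and 1 in females in place of 0. Those over the 18 comparisons went from 1 to 12, those against the other 8 shRNA groups from 2 (males) and 1 (females) to 5 in each, and the wider genes in both sexes from 7 to 18. The 12 include 3 from comparisons whose numbers do not pair the libraries: Ctnnb1 after Ash1l shRNA and Ctnnb1 and Nkd1 after Med13l shRNA, all in males. Fitting only the libraries compared gave 3 calls after Chd8 shRNA in males (Ctnnb1, Nkd1 and Apc), 6 over the 18 comparisons and 0 wider genes. Fitting each sex separately gave 1 call after Chd8 shRNA in males, 3 over the 18, and 4 (males) and 0 (females) against the other 8. The no virus control gave 3 calls over the 18 and DESeq2 gave 2. Without a filter on low counts 1 call was left against the other 8 in males. Leaving out each library in turn, with the comparisons that use it tested again, gave 0 to 2 calls over the 18, 0 to 3 (males) and 1 to 3 (females) against the other 8, and 4 to 7 wider genes, and 0 after Chd8 shRNA in either sex. The cause of these changes was not tested. For settings other than the replicate block the share of all genes called was not worked out. Those counts of members therefore have no background and cannot be read as results about the pathway. For the block over the knockdown comparisons, the share was taken only where the numbers pair (7%). Without the libraries labelled Setd5 shRNA and Kdm6b shRNA male replicate 1, 50 of 51 single-gene results kept their side, and Amer1 after Med13l shRNA in males lost its call (edgeR adjusted p = 0.0564). Depth limits the TCF and LEF genes, which had at most 46 counts in a library.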
